A study of Mus musculus with 8 samples.

Results

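Ribosomal protein paralog genes encode a variant copy of a ribosomal protein beside the gene of the standard protein. The 6 members followed here were Rpl22l1, its parent Rpl22, and the paralogs Rpl7l1, Rps27l, Rpl39l and Rpl36al, taken by symbol from the 55401 genes of the count files. Rpl22l1 was chosen by its fall against control in these same libraries, so its values against control are given as a description with no test. All 6 members passed the filter on low counts, as did 17532 genes in all. The parent genes Rpl7, Rps27, Rpl39 and Rpl36a were measured beside them.

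RNA-seq was done on total RNA of mouse embryonic stem cells (ESCs), with 2 libraries labelled Control, 3 labelled Zzz3 auxin and 3 labelled Yeats2 auxin. ZZZ3 and YEATS2 are subunits of the ATAC coactivator complex, which carries a histone acetyltransferase, and in the auxin cultures each carried an auxin-inducible degron (AID), by which the protein is marked for degradation once auxin is given. Auxin was present at 500 µM for 24 h, and all cells were grown in serum with LIF and inhibitors of MEK and GSK3 and kept under G418 to select for Tir1, the receptor that recognises the degron. The labels give no line and no treatment for the 2 control libraries. The paper's supplementary legends describe degron cells given DMSO or auxin, while its methods call the reference wild type. Neither statement names these 2 libraries, which may therefore differ from the others by line or by auxin as well as by the depletion. The auxin groups are called ZZZ3 and YEATS2 depletion here, as labelled. No label says that the libraries of a group came from separate clones or days, so p-values measure the spread between these libraries only. Degradation acts on the protein, and the mRNA of Zzz3 or Yeats2 is no check of it.

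Each ribosome contains a single copy of most of its proteins, and the mRNAs of the standard proteins are among the most abundant of a growing cell. Paralogs are usually expressed at a lower level or in fewer tissues, and their product can take the place of the standard protein in part of the ribosomes. RPL22 and RPL22L1 are paralogs of the large subunit that bind RNA also outside the ribosome, and loss of Rpl22 is known to raise Rpl22l1. RPL39L is best known from male germ cells, RPS27L is encoded by a target gene of p53, and RPL7L1 belongs to a family that acts in assembly of the large subunit.

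How far reads of a paralog and its parent can be told apart depends on their sequences. The coding sequences of Rpl22l1 (369 bases) and Rpl22 (387 bases) agreed at 72.7% of 366 aligned bases, the longest run of identical bases was 26, and any 100 aligned positions held at least 17 differences. The most similar stretch of 120 bases without a gap is shown because it is where reads of both genes would be hardest to separate, with the 27 bases that differ from the partner in capitals. It spans bases 168 to 287 of the Rpl22l1 coding sequence and bases 186 to 305 of that of Rpl22, on the strand of the mRNA, in the GENCODE vM21 isoforms on GRCm38.
Rpl22l1: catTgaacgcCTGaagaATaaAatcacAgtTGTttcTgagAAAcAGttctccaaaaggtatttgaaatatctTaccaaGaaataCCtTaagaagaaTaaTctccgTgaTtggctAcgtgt
Rpl22: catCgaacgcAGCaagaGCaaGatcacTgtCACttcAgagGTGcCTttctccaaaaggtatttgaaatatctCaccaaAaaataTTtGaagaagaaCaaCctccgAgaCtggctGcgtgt
Rpl39l and Rpl39 are a closer pair. Their coding sequences are both 156 bases long and differ at 23, again in capitals, with at least 11 differences in any 100 bases.
Rpl39l: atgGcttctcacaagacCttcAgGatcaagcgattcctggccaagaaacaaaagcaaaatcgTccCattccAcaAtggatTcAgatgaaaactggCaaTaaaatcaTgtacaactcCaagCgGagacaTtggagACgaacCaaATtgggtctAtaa
Rpl39: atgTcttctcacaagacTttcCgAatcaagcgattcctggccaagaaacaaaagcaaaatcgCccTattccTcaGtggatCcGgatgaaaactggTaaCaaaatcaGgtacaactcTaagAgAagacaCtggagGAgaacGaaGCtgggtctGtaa
The remaining pairs agreed at 64.9% (Rpl7l1 and Rpl7), 76.1% (Rps27l and Rps27) and 87.9% (Rpl36al and Rpl36a) of their aligned coding bases.

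Processed pseudogenes are a second source of shared sequence. Of the 100-base windows of each coding sequence, none of Rpl22, Rps27l or Rpl39l, 4.2% of Rpl7l1, 58.5% of Rpl22l1 and 54.95% of Rpl36al occurred exactly in a transcript annotated at another locus. The authors counted uniquely aligned reads, and reads within such windows may have been lost or assigned to the copy, which was not tested. Across libraries, reads of the 4 pseudogene copies of Rpl22l1 came to 0.614 to 2.73% of its own, and for the other members the copies came to at most 0.644%. Adding the reads of copies to the members, an alternative chosen after seeing the data, changed the log2 fold change (FC) of Rpl22l1 from -1.41 to -1.40 after ZZZ3 depletion and from -1.29 to -1.28 after YEATS2 depletion. All windows of Rps27 and Rpl36a were shared with copies, and the values of these parents are read with that limit.

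Rpl22l1 (ENSMUSG00000039221, plus strand, chr3:28805436-28807424) had the largest difference from control among the members. Its level, in TMM-scaled CPM (counts scaled to the same library total), was 106 and 111 CPM in the controls, 28.1, 47.6 and 46.9 CPM after ZZZ3 depletion and 44.3, 49.1 and 39.8 CPM after YEATS2 depletion. Every auxin library was thus below both controls, and the lowest was replicate 1 of Zzz3 auxin. The means were 108.5 ± 3.31 (SD, n = 2), 40.9 ± 11.0 (SD, n = 3) and 44.4 ± 4.65 CPM (SD, n = 3), from mean counts of 2298, 911 and 1170 reads. The log2 FC in edgeR's fit was -1.41 (SE 0.196) after ZZZ3 depletion and -1.29 (SE 0.196) after YEATS2 depletion, which correspond to 37.6% and 41.0% of control. In the order of log2 FC over all 17532 genes it stood at rank 64 and rank 85 from the lowest. These values chose the gene. In bulk RNA, fewer cells with the transcript and less transcript per cell cannot be told apart.

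The direct comparison of both depletions was not used to pick Rpl22l1. It gave a log2 FC of 0.12 after YEATS2 depletion relative to ZZZ3 depletion (95% interval -0.27 to 0.52, adjusted p = 0.887 by edgeR's quasi-likelihood test), so a difference between the depletions was not detectable, while one within this interval remains possible. Genes were called at an adjusted p under 0.05, with Benjamini-Hochberg adjustment over all genes tested. Without replicate 1 of Zzz3 auxin this difference was -0.09, and the log2 FC of Rpl22l1 after ZZZ3 depletion was -1.18.

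The annotation limits how the Rpl22l1 value is read. In GENCODE vM21, isoforms with retained introns make the union of its exons 1 block of 1989 bases that covers the whole gene, so intronic reads may count towards it. The authors counted with another Ensembl release, which was not checked here. The antisense gene Gm33051 shares 159 of these bases (7.99%), and whether the counting used strand is not stated, so reads of both genes there may not be separated.

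Rpl22 (ENSMUSG00000028936, plus strand, chr4:152325742-152334071), which encodes the standard protein of this pair, measured 478 and 563 CPM in the controls, 358, 488 and 441 CPM after ZZZ3 depletion and 431, 514 and 471 CPM after YEATS2 depletion. The libraries of the 3 groups overlapped. Its log2 FC was -0.28 (95% interval -0.60 to 0.04, edgeR adjusted p = 0.291) after ZZZ3 depletion and -0.14 (-0.46 to 0.18, adjusted p = 0.692) after YEATS2 depletion. Neither passed the test, and the intervals leave room for a change of the sizes they span. After ZZZ3 depletion the log2 FC shrank to -0.15 when Zzz3 auxin replicate 1 or control replicate 2 was left out. It grew to -0.40 without control replicate 1 and to -0.38 without Zzz3 auxin replicate 2. After YEATS2 depletion it became -0.26 when control replicate 1 was omitted, -0.015 when control replicate 2 was omitted and -0.075 when Yeats2 auxin replicate 1 was omitted.

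**Figure D1:**
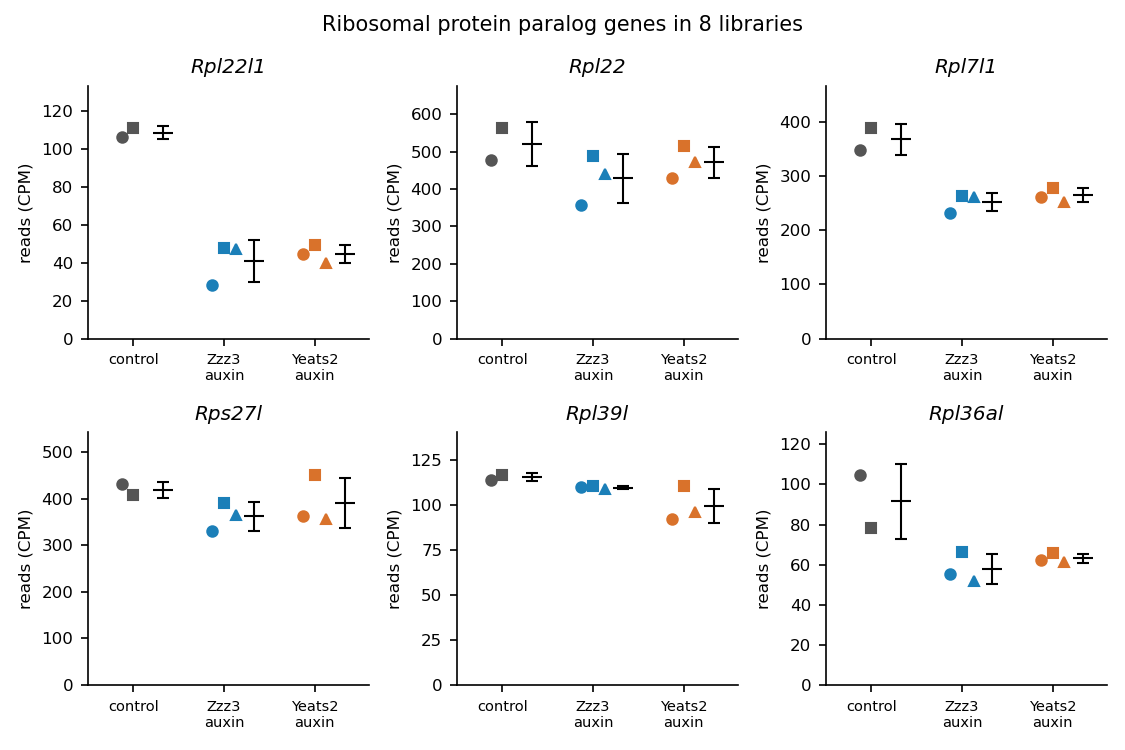
TMM-scaled CPM (y axis, from 0) of the 6 paralog genes in each library, by group on the x axis; circle, square and triangle are replicates 1, 2 and 3, and the bar beside them is the mean with its SD. The 6 auxin libraries of Rpl22l1 lie between 28.1 and 49.1 CPM, below its controls at 106 and 111 CPM, whereas those of Rpl22 overlap its controls.

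The ratio of paralog to parent within a library does not depend on how the library was scaled. Per length of the mRNA (552 bases for Rpl22l1 and 474 for Rpl22 in the isoforms used), Rpl22l1 made up 16.01% and 14.5% of the summed level of the pair in the controls. It made up 6.32, 7.72 and 8.38% after ZZZ3 depletion and 8.12, 7.58 and 6.77% after YEATS2 depletion, so that no auxin library reached the control range. The log2 ratio of counts was -2.26 ± 0.123 (SD, n = 2) in the controls, -3.42 ± 0.226 (SD, n = 3) after ZZZ3 depletion and -3.41 ± 0.144 (SD, n = 3) after YEATS2 depletion. It contains the value that picked Rpl22l1 and was not tested. With the length of all annotated exons in place of the mRNA, the shares were 22.4 to 24.5% in the controls and 10.3 to 13.5% in the auxin libraries. Of the 100-base coding windows, 58.5% of Rpl22l1 and none of Rpl22 are shared with other loci. The shares may therefore understate Rpl22l1, which was not tested.

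The Rpl39 pair showed the opposite arrangement, with the parent lower and the paralog near control. Rpl39 (ENSMUSG00000079641, minus strand, chrX:37082520-37085402), the gene of a small protein at the exit tunnel of the large subunit, measured 891 and 737 CPM in the controls, 261, 418 and 462 CPM after ZZZ3 depletion and 421, 428 and 372 CPM after YEATS2 depletion. All 6 auxin libraries were below both controls. Its log2 FC was -1.10 (SE 0.200) after ZZZ3 depletion, where it fell (edgeR adjusted p = 0.0396), and -1.001 (SE 0.200) after YEATS2 depletion, where it missed the threshold (adjusted p = 0.0631). The call after ZZZ3 depletion was lost with the replicate number as a block (edgeR adjusted p = 0.0739) and with only the compared groups (0.178). It was also lost without Zzz3 auxin replicate 1 (0.0516) and without any one Yeats2 auxin library (0.0751 to 0.0892). Leaving out either control lost it too, with a log2 FC of -0.96 without control replicate 1 and -1.22 without control replicate 2. With only the compared groups 0 of 16627 genes were called after ZZZ3 depletion, and with 1 control left calls were lost over all genes too. The loss in these settings is thus not particular to Rpl39. After YEATS2 depletion edgeR called the gene without Zzz3 auxin replicate 1 (0.0178) or replicate 3 (0.0210), with only the compared groups (0.00298) and without a filter on low counts (3.38e-09). P-values without a filter, here and for other genes, were close to those of a normal distribution. They treat the spread as known and are no measure of the spread between these libraries. DESeq2 called Rpl39 in both depletions (0.000102 and 0.000712).

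Rpl39l (ENSMUSG00000039209, plus strand, chr16:10170226-10174911) measured 114 and 117 CPM in the controls, 110, 110 and 109 CPM after ZZZ3 depletion and 92.4, 110 and 96.0 CPM after YEATS2 depletion. All auxin libraries were below both controls, by little. The log2 FC was -0.07 (95% interval -0.32 to 0.17, edgeR adjusted p = 0.749) after ZZZ3 depletion and -0.21 (-0.46 to 0.03, adjusted p = 0.405) after YEATS2 depletion. The sign after ZZZ3 depletion turned to 0.23 when the trends of each library on GC content and gene length were removed, and the value after YEATS2 depletion then was -0.01. No annotated transcript at another locus matched the Rpl39l coding sequence at 90% or more over 100 bases.

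Per length of the mRNA, Rpl39l made up 8.84% and 10.8% of its pair in the controls, 24.3, 16.7 and 15.2% after ZZZ3 depletion and 14.3, 16.4 and 16.4% after YEATS2 depletion, all 6 above both controls. The log2 ratio of counts was -2.82 ± 0.220 (SD, n = 2) in the controls, and it was higher by 1.06 after ZZZ3 depletion and by 0.78 after YEATS2 depletion. With 6 auxin against 2 control libraries the exact permutation test, two-sided, gave p = 0.0714, the smallest it can give with 28 splits, and p = 0.286 after adjustment over the 4 pairs tested.

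In the Rpl7 pair, paralog and parent had log2 FC of similar size. Rpl7l1 (ENSMUSG00000063888, minus strand, chr17:46773907-46782672) measured 348 and 389 CPM in the controls, 232, 263 and 261 CPM after ZZZ3 depletion and 262, 278 and 253 CPM after YEATS2 depletion, with no overlap between auxin and control. Its log2 FC was -0.55 (SE 0.112, edgeR adjusted p = 0.0505) after ZZZ3 depletion and -0.48 (SE 0.113, adjusted p = 0.101) after YEATS2 depletion, 68.5% and 71.8% of control. DESeq2 called it in both depletions (adjusted p = 0.00245 and 0.0170). Under edgeR it was also called after ZZZ3 depletion without Zzz3 auxin replicate 2 (0.0385) or replicate 3 (0.0365) and without a filter (0.00595), and after YEATS2 depletion with only the compared groups (0.0354). Over all alternatives its adjusted p ranged from 0.00245 to 0.373 after ZZZ3 depletion and from 0.0170 to 0.519 after YEATS2 depletion.

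Rpl7 itself measured 774 and 886 CPM in the controls and 469 to 699 CPM in the 6 auxin libraries, and its log2 FC of -0.51 and -0.55 did not pass the test (edgeR adjusted p = 0.121 and 0.168), although edgeR called it in both depletions without a filter (0.0108 and 0.0120), after ZZZ3 depletion without Zzz3 auxin replicate 3 (0.0499) and after YEATS2 depletion with only the compared groups (0.0435). Rpl7l1 made up 16.4 to 16.7% of the pair per length in the controls and 14.3 to 18.3% in the auxin libraries, which lie on both sides of the controls. The exact permutation test of this ratio gave p = 0.786, adjusted p = 0.786 over the 4 pairs.

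**Figure D2:**
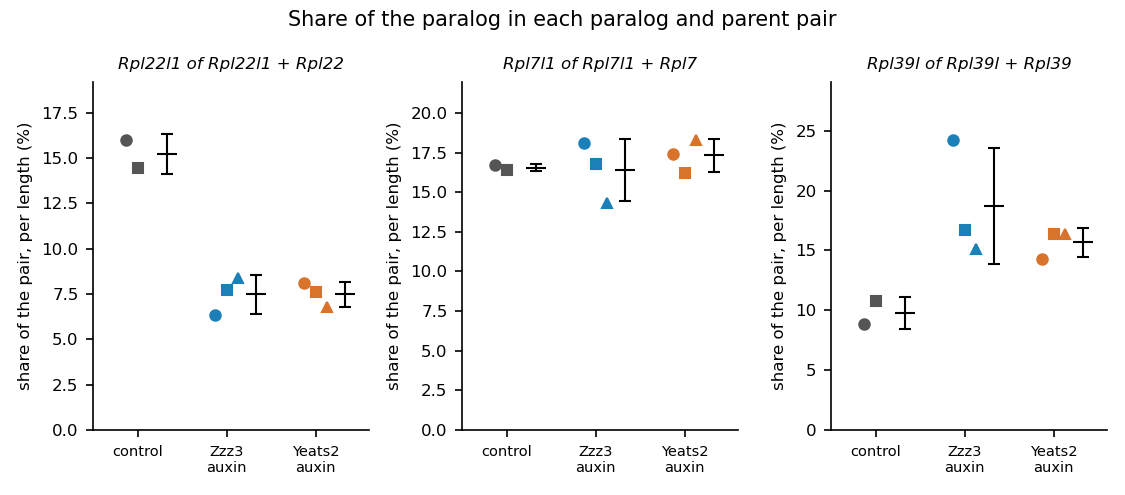
Share of the paralog in the summed level of paralog and parent, per length of the mRNA (percent, y axis, from 0), in each library of each group; symbols are replicates 1 to 3 as circle, square and triangle, and the bar is the mean with its SD. The Rpl22l1 share is lower in all auxin libraries (6.32 to 8.38%) than in the controls (14.5 and 16.01%), the Rpl39l share is higher (14.3 to 24.3% against 8.84 and 10.8%), and the Rpl7l1 share lies on both sides of its controls.

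Rpl36al (ENSMUSG00000049751, minus strand, chr12:69182731-69184083), whose exons form 1 block, measured 105 and 78.4 CPM in the controls, which in relative terms differed more from each other than those of any other member. The auxin libraries measured 55.6, 66.1 and 52.0 CPM after ZZZ3 depletion and 62.5, 65.8 and 61.6 CPM after YEATS2 depletion, all below both controls. The log2 FC was -0.66 (SE 0.148, edgeR adjusted p = 0.0636) and -0.53 (SE 0.148, adjusted p = 0.147). DESeq2 called it after ZZZ3 depletion (0.00652), as did edgeR without Zzz3 auxin replicate 2 (0.0334), and edgeR without a filter called it in both depletions (0.00116 and 0.0420). With control replicate 1 left out its log2 FC became -0.44 and -0.31, and with control replicate 2 left out -0.85 and -0.73. The gene Gm49383 on the same strand shares 332 bases (24.54%) of its exons, and reads there cannot be assigned to either gene.

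Its parent Rpl36a had few uniquely assigned reads, with 23.7 and 23.5 CPM in the controls and 7.29 to 15.1 CPM in the auxin libraries, and a log2 FC of -1.05 and -0.86 (edgeR adjusted p = 0.0709 and 0.156). The exact permutation test of the Rpl36al to Rpl36a ratio gave p = 0.214 (adjusted p = 0.429). The level of this pair is not interpreted, since all windows of Rpl36a are shared with copies.

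Rps27l (ENSMUSG00000036781, plus strand, chr9:66946086-66949516) measured 431 and 407 CPM in the controls, 330, 391 and 366 CPM after ZZZ3 depletion and 363, 452 and 358 CPM after YEATS2 depletion. The Zzz3 auxin libraries were all below the controls, and Yeats2 auxin replicate 2 was above them. The log2 FC was -0.21 (95% interval -0.50 to 0.08, edgeR adjusted p = 0.382) and -0.10 (-0.39 to 0.19, adjusted p = 0.762), and both signs turned (to 0.09 and 0.10) with the GC and length trends removed. With Zzz3 auxin replicate 1 left out the first became -0.13, and with single libraries left out the second ranged from -0.22 (Yeats2 auxin replicate 2) to -0.040 (Yeats2 auxin replicate 3). Rps27 had only 4.68 to 9.30 CPM in any library. All of its windows are shared with copies, as given above, and the exact permutation test of the pair ratio gave p = 0.429 (adjusted p = 0.571).

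Rps27l can be set beside other p53 target genes. Of a list of 16, 5 were called higher after ZZZ3 depletion and 4 after YEATS2 depletion, against 0.496% and 0.331% of all genes called higher, and the median log2 FC was 0.68 and 0.67 against 0.01 and -0.01 over all genes. The largest rises called were those of Plk2, a kinase of the cell cycle, with a log2 FC of 1.28 and 1.21 (edgeR adjusted p = 0.00465 and 0.00799), and, after ZZZ3 depletion, of Sesn2, a stress response gene, with 1.01 (adjusted p = 0.0359). Mdm2, Btg2 and Phlda3 were called in both. Cdkn1a, the cell cycle inhibitor, had a log2 FC of -0.01 and 0.16 (adjusted p = 0.993 and 0.846). Leaving out either control removed all of these calls, and without one auxin library the number called ranged from 1 to 8 after ZZZ3 depletion and from 0 to 7 after YEATS2 depletion, while every such median lay between 0.60 and 0.75. With 1 control left, calls over all genes were almost entirely lost too, so that loss is not particular to this list.

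Rpl22l1 was left out of the count of calls against control, since these values picked it. None of the other 5 members was called by edgeR, against 0.257% of all genes called lower after ZZZ3 depletion and 0.114% after YEATS2 depletion. Of the 5, 2 (Rpl7l1 and Rpl36al) had an unadjusted p under 0.05 in each depletion, and DESeq2 called both after ZZZ3 depletion and Rpl7l1 after YEATS2 depletion. Over all genes with an adjusted p, DESeq2 called 1079 of 14447 after ZZZ3 depletion and 415 of 13168 after YEATS2 depletion. An unadjusted p under 0.05 was found for 21.7% and 14.6% of all genes. Apart from Rpl22l1, all libraries after ZZZ3 depletion were below both controls for Rpl7l1, Rps27l, Rpl39l and Rpl36al. After YEATS2 depletion this held for Rpl7l1, Rpl39l and Rpl36al. Over all genes the share was 18.9% and 21.0%, and of the 79 cytosolic ribosomal protein genes it held for 41 in each depletion. In the direct comparison 0 members were called, 0 had an unadjusted p under 0.05 and 0 were called by DESeq2, against 0% of all genes called and 6.25% with an unadjusted p under 0.05, and their log2 FC ranged from -0.14 to 0.14 (edgeR adjusted p = 0.787 to 0.893).

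**Figure D3:**
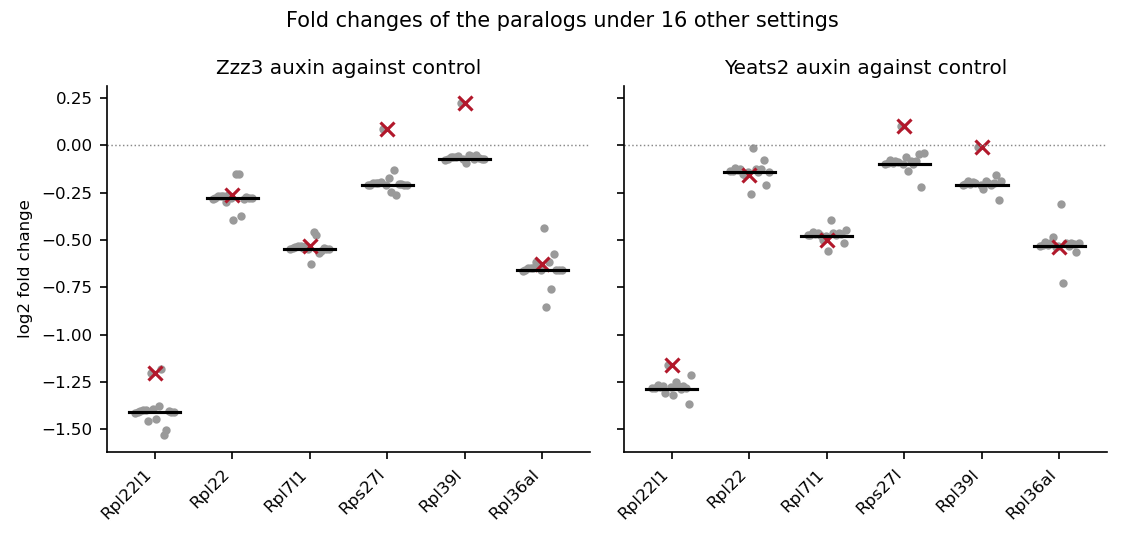
Log2 FC (y axis) of the 6 members in both comparisons with control; the black line is the reported value, grey points are 16 other settings of the analysis, and the red cross is the setting with GC and length trends removed. Rpl22l1 stays between -1.53 and -1.16, and the crosses of Rps27l in both panels and of Rpl39l after ZZZ3 depletion lie above 0.

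The balance of GC-rich and GC-poor genes differed between libraries, with control replicate 1 apart and control replicate 2 close to the lowest auxin libraries. The contrast of GC-rich minus GC-poor genes, in log2 CPM relative to the mean library, was -0.64 and -0.09 in the controls and -0.04 to 0.47 in the auxin libraries. With the trends on GC content and length removed, Rpl22l1 had a log2 FC of -1.20 after ZZZ3 depletion and -1.16 after YEATS2 depletion, and Rpl22 of -0.26 and -0.16. Rpl7l1 was called in both depletions under this setting (edgeR adjusted p = 0.0342 and 0.0439).

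Levels of different genes were compared per length only. In the controls, on the mRNA length and in RPKM, which is CPM divided by length, the order was Rpl22 (1099 ± 127, SD, n = 2), Rps27l (840 ± 33.5), Rpl22l1 (197 ± 5.99), Rpl36al (174 ± 35.6), Rpl39l (143 ± 2.66) and Rpl7l1 (141 ± 11.0). Rpl22l1 and Rpl36al, and Rpl39l and Rpl7l1, did not differ beyond their spread. After ZZZ3 depletion Rpl22l1 came last with 74.04 ± 20.004 RPKM (SD, n = 3), after Rpl7l1 with 96.9 ± 6.65, and after YEATS2 depletion it came last with 80.5 ± 8.42 after Rpl7l1 with 101.5 ± 4.99. The place in the controls depends on the length used, since over the union of exons Rpl22l1 was already last there with 54.6 ± 1.66 RPKM (SD, n = 2), against 67.7 ± 13.9 for Rpl36al. Reads may also be missing from coding windows shared with other loci (58.5% for Rpl22l1 and 54.95% for Rpl36al), and their effect on this order was not tested.

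The 79 genes of the cytosolic ribosomal proteins give the setting for these values. After ZZZ3 depletion 65 of them had a log2 FC below 0, with a median of -0.50, and 7 were called lower. After YEATS2 depletion 65 were below 0, with a median of -0.37, and 3 were called lower. Both comparisons share the 2 controls, here and for the members, and are not independent of each other. Over all genes, 48.9% and 51.1% were below 0. Among the falls called after ZZZ3 depletion was that of Rpl13 (-1.11, edgeR adjusted p = 0.0183), and the largest called after YEATS2 depletion were those of Rpl13 (-1.09, adjusted p = 0.0204) and Rpl26 (-0.997, adjusted p = 0.0382), both of which encode structural proteins of the ribosome. No call of this list remained without control replicate 1 or replicate 2, and 51 to 76 of the 79 were then below 0. Calls over all genes were almost entirely lost in those fits too, so the loss is not particular to the list. Without one auxin library, 0 to 25 were called lower after ZZZ3 depletion and 0 to 11 after YEATS2 depletion.

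None of these 79 genes had a lower log2 FC than Rpl22l1 in either depletion, by the same values that picked it. The nearest after YEATS2 depletion was Rpl38, a weakly counted gene of 2.44 CPM in the controls whose log2 FC of -1.16 was not called (edgeR adjusted p = 0.166). Rpl22, itself a gene of the list, had 50 and 57 of the 78 others below it, so that it lay towards the upper end of the list. Of the 79, 34 and 30 were below Rpl7l1, 25 and 27 below Rpl36al, 57 and 61 below Rps27l, and 63 and 55 below Rpl39l.

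**Figure D4:**
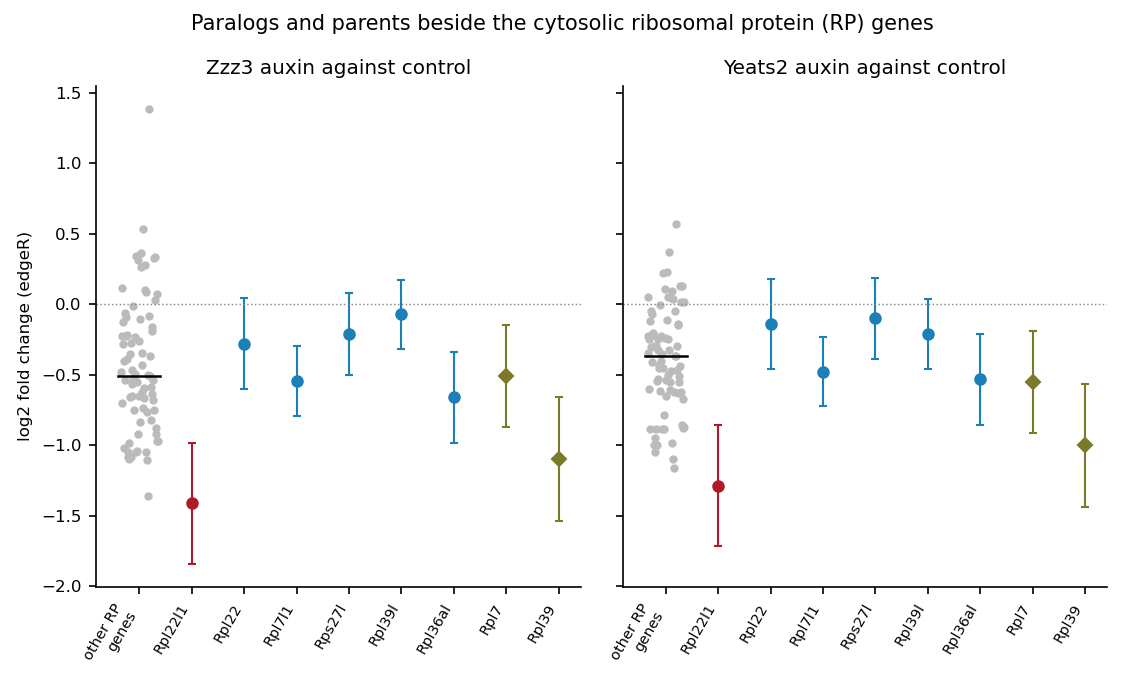
Log2 FC (y axis) after ZZZ3 and YEATS2 depletion against control; grey points are the cytosolic ribosomal protein genes other than Rpl22 with their median as a line, circles are the 6 members and diamonds the parents Rpl7 and Rpl39, with 95% intervals. Rpl22l1 lies at -1.41 and -1.29, under all grey points, and Rpl22, Rps27l and Rpl39l lie above the median of the list in both panels. The values of Rpl22l1 picked it, so its interval and its place are a description and no test.

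The 5 genes whose pattern over the 8 libraries was most like that of Rpl22l1 were all ribosomal protein genes, whereas from rank 9 on other genes stood among them. Likeness was the root mean square difference of log2 CPM centred on the mean of the libraries, taken for each of 10427 genes that averaged 5 CPM or more, and its median was 0.658. The 5 nearest were Rpl31 (0.143), Rps15a (0.159), Rpl13 (0.159), Rpl39 (0.165) and Rpl26 (0.166). Their log2 FC was -1.08, -1.05, -1.11, -1.10 and -1.05 after ZZZ3 depletion and -0.98, -0.95, -1.09, -1.001 and -0.997 after YEATS2 depletion. Rpl36a stood at rank 7, Rpl7 at 98, Rpl7l1 at 137, Rpl36al at 165, Rpl22 at 1053, Rps27l at 1754 and Rpl39l at 2925. The libraries share their depth and base composition in this measure, which includes the difference that picked Rpl22l1.

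**Figure D5:**
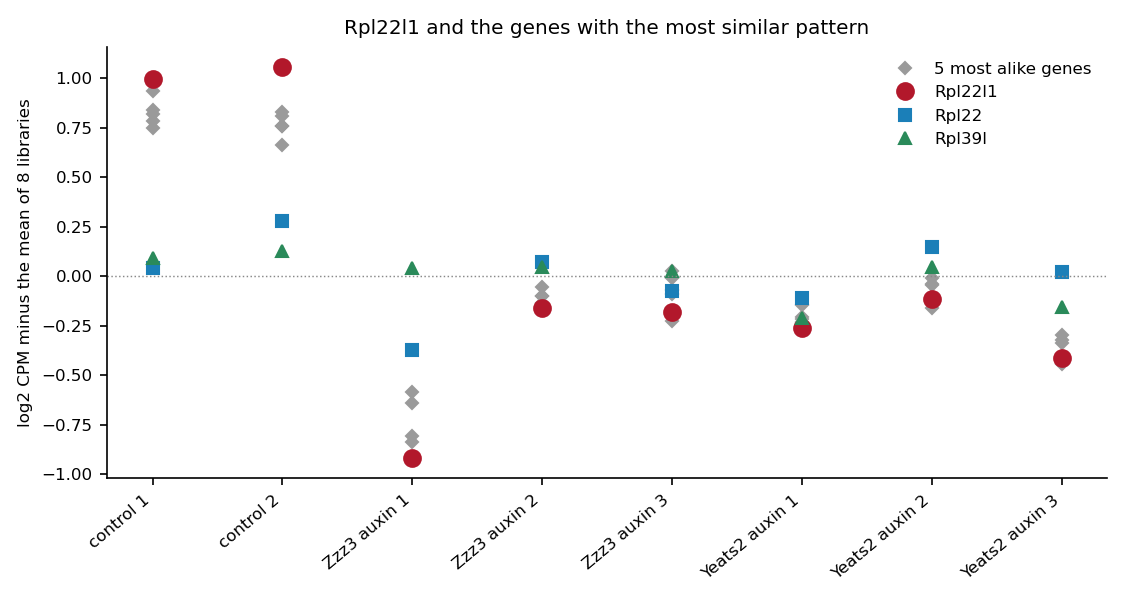
Log2 CPM minus the mean over 8 libraries (y axis) for each library (x axis); red circles are Rpl22l1, grey diamonds the 5 genes most like it (Rpl31, Rps15a, Rpl13, Rpl39 and Rpl26), blue squares Rpl22 and green triangles Rpl39l. The grey points follow the red ones, high in both controls and lowest in Zzz3 auxin replicate 1, while Rpl22 and Rpl39l stay nearer to 0.

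Of 4 other paralogs, 0 were called by edgeR or by DESeq2, and 1 after ZZZ3 depletion and 0 after YEATS2 depletion had an unadjusted p under 0.05. Rpl10l, a retrogene copy of Rpl10 known from male germ cells, measured 92.2 CPM in the controls, 121 CPM after ZZZ3 depletion and 116 CPM after YEATS2 depletion (log2 FC 0.39 and 0.33, edgeR adjusted p = 0.203 and 0.382), and Rps4l measured 95.6, 125 and 100.3 CPM (log2 FC 0.38 and 0.07, adjusted p = 0.454 and 0.932). The muscle paralog Rpl3l and the copy Rps27rt were under 1 CPM in every group mean, and their log2 FC of -0.53 and -0.51 after ZZZ3 depletion and -0.69 and -0.81 after YEATS2 depletion were not called (adjusted p = 0.505 to 0.620). All 255 coding bases of Rps27 occur unchanged in Rps27rt, and reads there cannot be assigned to either gene by unique alignment. The values of Rps27rt are read with that limit. Shared sequence was not examined for Rpl10l, Rps4l and Rpl3l. Of the relatives of ribosomal proteins that act in ribosome assembly beside Rpl7l1, Rsl24d1 had a log2 FC of -0.29 and -0.22 (adjusted p = 0.260 and 0.492) and Mrto4 of -0.03 and 0.10 (adjusted p = 0.912 and 0.735).

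Genes reported elsewhere as regulated by RPL22 or RPL22L1 were looked at as well. None of the 5 was called by edgeR in either depletion, 1 had an unadjusted p under 0.05 in each, and DESeq2 called 0. Their median log2 FC was -0.21 after ZZZ3 depletion and -0.19 after YEATS2 depletion. The signal transducers Smad1 (-0.21 and -0.29, edgeR adjusted p = 0.400 and 0.360) and Smad2 (-0.11 and -0.06, adjusted p = 0.604 and 0.839), the RNA-binding protein gene Lin28b (0.40 and -0.07, adjusted p = 0.478 and 0.939), Trp53 (-0.34 and -0.19, adjusted p = 0.377 and 0.722) and its inhibitor Mdm4 (-0.32 and -0.28, adjusted p = 0.174 and 0.327) all missed the threshold.

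Libraries held 14315120 to 27884704 assigned reads, the fewest in Zzz3 auxin replicate 3. All 7 ESC markers were expressed, with 105 to 2345 CPM in the controls, and none of them was called by edgeR, while 2 had an unadjusted p under 0.05 in each depletion and DESeq2 called 1 higher after ZZZ3 depletion. The 4 feeder markers stayed under 1 CPM in every group mean, as did the 3 markers of primitive endoderm, while the 2 of neuroectoderm and the 3 of trophectoderm stayed under 10 CPM. The germ cell markers Ddx4, Dazl and Sycp3, relevant to Rpl39l and Rpl10l, were present at 8.47 to 33.1 CPM and were not called in the main fit. With GC and length trends removed, edgeR called 1 of the 3 higher after ZZZ3 depletion and 0 after YEATS2 depletion. The part of these markers' cells in the level of Rpl39l and Rpl10l was not tested.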

How the data were processed

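The deposited values are raw read counts per gene, with no normalization. Per the methods and processing notes, reads had been trimmed (cutadapt), cleared of ribosomal RNA and aligned to mm10 with STAR 2.5.3a before the authors counted unique alignments with HTSeq 0.6.1p1 (union mode, Ensembl annotation). The strand option is not given in the sources used here. The labels name poly(A) RNA, but the protocol describes ribodepleted total RNA. The 5 tallies of unassigned reads were left out.

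All 8 libraries were fitted together in R 4.3.3 with edgeR 4.0.16 (filterByExpr, TMM, robust quasi-likelihood test), and p-values were adjusted by Benjamini-Hochberg over all 17532 genes per comparison. A call is an adjusted p under 0.05. DESeq2 1.42.0 was an alternative, as were other size factors and filters, the compared groups alone, the replicate number as a block, lowess removal of GC and length trends (span 0.3), adding pseudogene copies, and leaving out each library. The code was tested on simulated data. The likeness measure used log2 CPM with a prior count of 2. Symbols, positions and coding sequences came from GENCODE vM21 (GRCm38), which gave a symbol to 55141 genes. Coding sequences were aligned globally, and pseudogene copies were found with blastn. Replicates were no duplicates, since their counts differed by more than sampling noise. Yeats2 auxin replicates 1 and 3 were closer to each other than any other pair within a group. Their chi-square per gene was 3.82, against 22.1 to 53.9 for the other pairs.

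The members, the gene lists (cytosolic ribosomal protein genes, p53 target genes, other paralogs, assembly relatives, genes regulated by RPL22 or RPL22L1, cell type markers) and most tests were chosen with earlier results of these data known. Named are all members, their parents, short lists in full, of longer lists the 2 largest called rises and falls, and the 5 genes most like Rpl22l1, except 1 result that is not reported here. Mdm2, Btg2, Phlda3, Cdkn1a and Rpl38 were named after their values were seen. Depth left little counting error for the members, and the 2 controls limit precision.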

Additional observations from a re-analysis of the deposited data

How the results depend on the processing

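Each value was recomputed under 16 other settings, 1 of them (pseudogene copies added) chosen after seeing the data. The log2 FC of Rpl22l1, Rpl22, Rpl7l1 and Rpl36al against control stayed below 0 in all of them, with -1.53 to -1.18 for Rpl22l1 after ZZZ3 depletion and -1.37 to -1.16 after YEATS2 depletion. With GC and length trends removed, the log2 FC of Rps27l turned to 0.087 after ZZZ3 and 0.10 after YEATS2 depletion and that of Rpl39l to 0.23 after ZZZ3 depletion. The number of the 6 members called was 1 in each comparison with control, Rpl22l1 in both, which these values had picked, so these counts describe its choice and test nothing about it. Any further members called were Rpl7l1 and Rpl36al. Numbers in parentheses are the genes called of all genes tested under a setting, which were 132 and 78 of 17532 in the main fit. After ZZZ3 depletion the count of members was 3 with DESeq2 (1079 of 14447) and 3 without a filter (1542 of 33007). It was 2 with GC and length trends removed (191 of 17532) and 0 with only the compared groups (0 of 16627). After YEATS2 depletion it was 2 with DESeq2 (415 of 13168) and 2 without a filter (553 of 33007). It was also 2 with only the compared groups (454 of 16861) and with the trends removed (131 of 17532). Leaving out a library gave 0 to 3 after ZZZ3 depletion and 0 to 1 after YEATS2 depletion. It was 0 without either control, where the lone control is assumed to vary like the other groups, and without Yeats2 auxin replicate 1, and after YEATS2 depletion also without Yeats2 auxin replicate 2 or 3. Of the 79 cytosolic ribosomal protein genes, 7 were called lower after ZZZ3 and 3 after YEATS2 depletion, and the counts were 29 and 14 with DESeq2, 34 and 21 without a filter, 0 and 20 with only the compared groups, 4 and 3 with the replicate block and 11 and 6 with the trends removed. Of the 16 p53 target genes, 5 and 4 were called higher, and the counts were 10 and 10, 11 and 12, 0 and 10, 1 and 1, and 8 and 6 under the same settings. Calls over all genes under these settings are those given above, and 42 and 32 of 17532 with the replicate block. The cause of the other shifts was not tested. Between the depletions, 0 members were called under every setting, and without a library the difference of Rpl22l1 ranged from -0.089 to 0.25 and that of Rps27l from -0.0080 to 0.17.

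Without a library, the log2 ratio of Rpl7l1 to Rpl7 after ZZZ3 depletion differed from control by -0.11 to 0.091, and that of Rps27l to Rps27 by -0.69 to 0.088 after ZZZ3 and by -0.63 to 0.15 after YEATS2 depletion, so these signs rest on single libraries. Adding 0.5 to the counts moved no ratio past its spread. With the replicate number as a block, the 1 member called in each comparison with control was Rpl22l1, which these values had picked. Rpl39 after ZZZ3 depletion then had an edgeR adjusted p of 0.0739. The deviations of same-numbered libraries from their group means correlated at -0.34 to 0.31, and those of different-numbered libraries at -0.37 to 0.37. With 2 controls their deviations mirror each other, so values that involve a control cannot decide whether the numbers pair the libraries. Between Zzz3 and Yeats2 auxin libraries, the same numbers correlated at -0.074 to 0.045 and different numbers at -0.10 to 0.059. No pairing by number was seen between those groups. The limits are the 2 controls, whose line and treatment the labels do not give, and unique alignment, which leaves few reads for Rps27 and Rpl36a.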
